A study of Mus musculus with 18 samples.

Results

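The t complex testis genes are 6 genes of mouse chromosome 17 whose symbols record that they were described as t complex proteins or testis-expressed t complex genes: Tcp1, Tcp10c, Tcp11, Tcte1, Tcte2 and Tcte3. They were taken by symbol from the Entrez gene of each probe set. The array held a probe set for 5 of the 6, among 15780 named genes. Tcte3 had none under its Entrez identifier and is not analysed here.

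As background, the t complex is the proximal region of mouse chromosome 17, and t haplotypes are variant forms of it that carry inversions, suppress recombination and are passed on by heterozygous males to most offspring. Genes of the region were found through transcripts that are abundant in the testis. Tcp1 encodes a subunit of the cytosolic chaperonin CCT, which folds actin and tubulin in all cells. Tcp11 encodes a testis protein linked to sperm motility. Tcte1 encodes a subunit of the nexin-dynein regulatory complex of the sperm tail, and Tcte3 encodes a light chain of axonemal dynein. Tcp10c belongs to the Tcp10 family of testis-expressed t complex genes.

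Levels were read from 18 arrays of 7 groups, which the design text calls biological replicates. At 2 months of age, cells were taken from testis suspensions by fluorescence-activated sorting. Pre-mid-pachytene spermatocytes came from 3 samples of Ttf+/+T43H, 3 of t12+/+T43 and 2 of C57BL/10J, whose males are described as fertile, and 2 further C57BL/10J samples held mid-late-pachytene spermatocytes. Whole testes, without the tunica, came from males aged 15 days, with 3 samples of each carrier, Ttf+/+T43H and t12+/+T43, and 2 of C57BL/6J. Both carrier lines are kept on C57BL/10J and combine a translocation of chromosome 17, labelled T43H or T43, with a Ttf or a t12 chromosome. No group carries the t12 or the Ttf chromosome without the translocation, and the testis control is of another strain than the carriers. Carriers and controls thus differ in chromosome 17 itself, where all 6 genes lie, so a change in transcript and a sequence difference under the probes cannot be told apart. Both carriers are compared with the same control arrays, so their changes share the error of those controls.

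Values are the deposited log2 GCRMA signals. A log2 value under 4 is called low here, since 53.8% to 57.05% of probe sets reached 4 on each array. Replicate arrays correlated across genes at 0.963 to 0.996 in sorted cells and at 0.998 to 0.999 in testes. Ttf+/+T43H replicate 2 and t12+/+T43 replicate 3 of the sorted arrays stood apart in an earlier reading of these data, and results that change without them are given both ways. Gapdh probe sets at the 3' end exceeded those at the 5' end, a sign of RNA and labelling quality, by 3.26 to 3.98 in sorted carriers, by 2.86 and 2.93 in earlier C57BL/10J spermatocytes, by 2.51 and 3.39 in mid-late cells, and by -0.12 to 0.14 in testes. For actin the same difference was 3.06 to 4.41 in sorted carriers, 2.49 and 2.51 in earlier C57BL/10J spermatocytes, 3.38 and 3.51 in mid-late cells, and 1.11 to 1.37 in testes, so it moved with stage and with genotype. The part of both in the results was not tested.

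By RefSeq, in build GRCm38.p6, Tcp1 lies at chr17:12916329-12925067, Tcp10c at chr17:13354572-13377223, Tcte2 at chr17:13716436-13761403, Tcte3 at chr17:15027154-15041559, Tcp11 at chr17:28066747-28080726 and Tcte1 at chr17:45523434-45542679. Tcp1, Tcp10c and Tcte2 are close neighbours, separated by 0.430 and 0.339 Mb. Between Tcte3 and Tcp11 lie 13.03 Mb and between Tcp11 and Tcte1 17.4 Mb. Tcp1 overlaps Mrpl18, on the opposite strand, by 1459 bases, and Tcte2 overlaps Afdn, also on the opposite strand, by 1013 bases.

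On the sorted arrays below, Tcp10c, Tcte2 and Tcp11 read lower in t12+/+T43 than in Ttf+/+T43H, and Tcp1 overlapped between them. In other comparisons the changes of Tcp10c, Tcte2 and Tcp11 differed in size. The promoters of these 4 genes are shown, and no link between promoter and level was tested. Each runs from 250 bases before to 50 after a RefSeq start site, 5' to 3' on the strand of the gene. Capitals mark matches on either strand to the searched motifs. These were TGACGTCA, the cAMP response element, the shorter TGACG that it contains, GTTGCCA, part of the site of RFX factors, and AACNGNC, a MYB-type site. Tcp11 is shown for sites 1 and 3 of its 3 listed start sites. The windows are chr17:12916079-12916378 (plus strand) for Tcp1, chr17:13354322-13354621 (plus) for Tcp10c, chr17:13761354-13761653 (minus) for Tcte2, chr17:28080590-28080889 (minus) for Tcp11 site 1 and chr17:28079715-28080014 (minus) for Tcp11 site 3.
Tcp1: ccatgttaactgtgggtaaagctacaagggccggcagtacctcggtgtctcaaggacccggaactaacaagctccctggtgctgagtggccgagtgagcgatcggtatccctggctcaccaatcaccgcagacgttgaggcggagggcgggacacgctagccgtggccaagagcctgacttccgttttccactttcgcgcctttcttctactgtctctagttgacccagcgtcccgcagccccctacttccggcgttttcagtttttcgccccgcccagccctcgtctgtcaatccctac
Tcp10c: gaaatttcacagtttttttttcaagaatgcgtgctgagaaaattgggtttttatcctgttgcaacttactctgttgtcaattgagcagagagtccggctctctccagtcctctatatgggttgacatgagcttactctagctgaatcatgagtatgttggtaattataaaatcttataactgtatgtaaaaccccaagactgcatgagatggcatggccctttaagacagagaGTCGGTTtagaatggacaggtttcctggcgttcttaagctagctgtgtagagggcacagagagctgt
Tcte2: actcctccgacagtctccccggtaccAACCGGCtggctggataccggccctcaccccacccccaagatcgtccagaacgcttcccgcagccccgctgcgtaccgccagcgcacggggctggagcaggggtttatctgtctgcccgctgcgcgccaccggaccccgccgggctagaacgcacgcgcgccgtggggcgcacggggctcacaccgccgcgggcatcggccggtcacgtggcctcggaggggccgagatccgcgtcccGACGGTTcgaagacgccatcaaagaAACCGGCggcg
Tcp11 site 1: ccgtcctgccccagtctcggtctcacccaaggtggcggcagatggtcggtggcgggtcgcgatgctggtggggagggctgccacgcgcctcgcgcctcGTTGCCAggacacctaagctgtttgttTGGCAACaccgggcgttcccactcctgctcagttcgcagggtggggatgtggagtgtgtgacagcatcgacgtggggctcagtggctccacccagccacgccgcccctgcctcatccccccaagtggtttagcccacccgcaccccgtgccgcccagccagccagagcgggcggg
Tcp11 site 3: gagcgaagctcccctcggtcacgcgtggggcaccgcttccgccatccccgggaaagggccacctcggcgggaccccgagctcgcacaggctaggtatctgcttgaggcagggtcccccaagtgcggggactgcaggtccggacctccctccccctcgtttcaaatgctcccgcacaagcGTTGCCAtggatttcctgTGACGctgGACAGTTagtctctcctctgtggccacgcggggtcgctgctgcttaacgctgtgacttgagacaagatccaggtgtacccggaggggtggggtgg

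At Tcp11 site 1, GTTGCCA occurred once on each strand, at positions -152 and -125 from the start site, with 20 bases between the matches. Site 3 held GTTGCCA at position -71, TGACG at -53 and AACNGNC at -45. GTTGCCA was found in 4.38% of the 32851 mouse promoters in the same table, TGACG in 20.8%, AACNGNC in 32.8% and TGACGTCA in 1.79%. Tcp1 held none of the 4 motifs, and Tcp10c held AACNGNC once and Tcte2 3 times. Base composition also set these promoters apart. Tcp10c had 41.7% G or C and 4 CpG dinucleotides, against 72.0% and 42 in Tcte2 and 59.3% and 22 in Tcp1, where the median promoter had 52.7% and 7. The 3 promoters of Tcp11 had 65.0% to 69.0% and 20 to 24 CpG. The promoter of Tcte3 had 64.0%, 29 CpG and none of the 4 motifs.

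**Figure D1:**
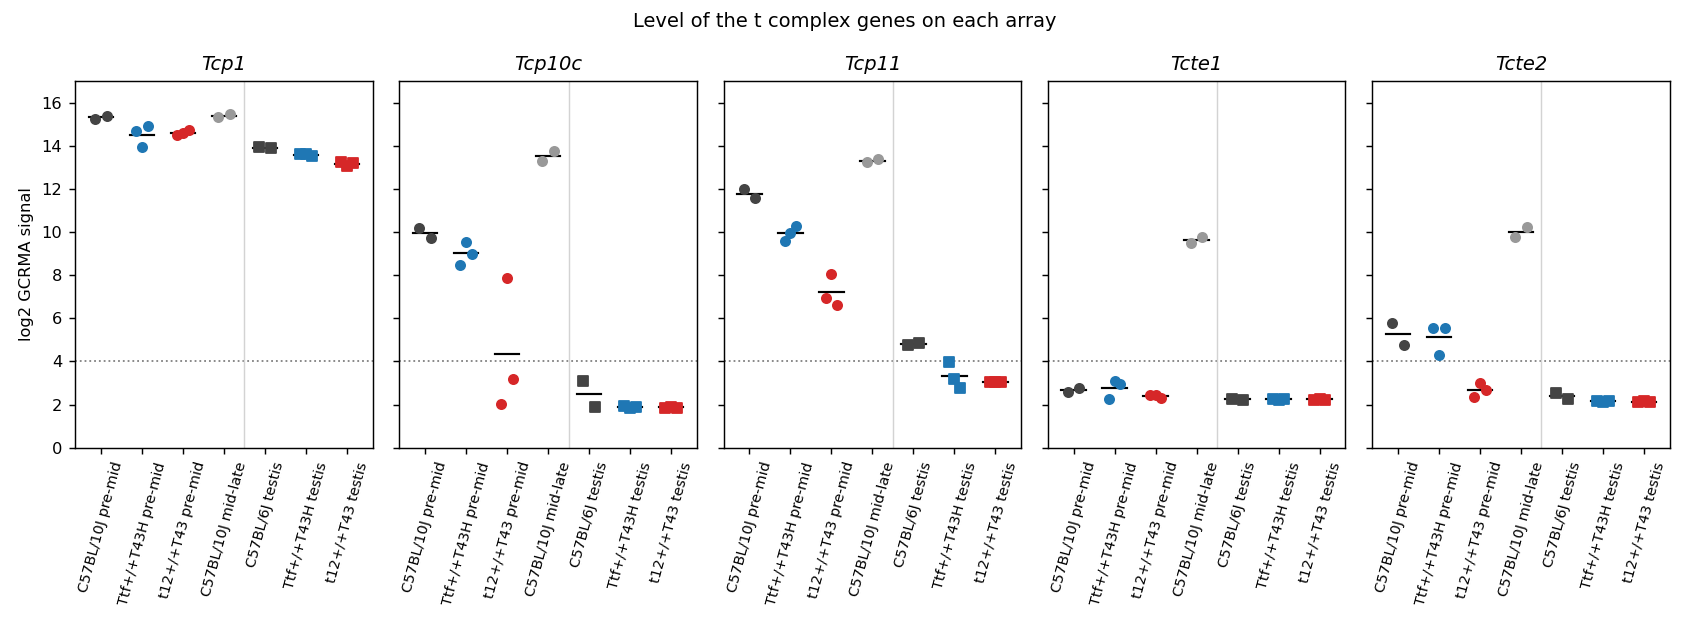
Log2 GCRMA signal (vertical axis) of each gene on each array, by group; points are arrays (circles, sorted cells; squares, testes), bars are group means, and the dotted line marks a log2 value of 4. Tcp1 is high on all 18 arrays, while Tcp10c, Tcp11, Tcte1 and Tcte2 peak in mid-late-pachytene cells and are low or near 4 in testes.

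Across normal pachytene, comparing the C57BL/10J sorts asks how the genes change between the earlier and the later spermatocytes. Tcte1, Tcte2 and Tcp11 rose in mid-late cells, Tcp10c was higher on both late arrays without passing the test, and Tcp1 kept a like level. Limma called 3 of the 5 genes, all higher, but 56.5% of the 9666 genes tested were called in this comparison, so the count by itself is near the background. The median change of the 5 genes was 3.55, against -0.11 over all genes tested, as a description. Tcte1 is in both the count and the median, although it passed the filter through the late arrays alone and had to differ.

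Tcte1 went from 2.57 and 2.77 in pre-mid-pachytene cells to 9.48 and 9.75 in mid-late cells. It was low on the other 16 arrays, so only the late arrays took it past the filter on low values, and a called difference there follows from that. The change was 6.95 ± 0.30 (SE; limma, adjusted p = 5.9e-07, n = 2 and 2), and 9645 of the 9666 genes had a lower change. Tcte2 stood at 5.79 and 4.77 and then at 9.78 and 10.25, a rise of 4.73 ± 0.50 (limma, adjusted p = 6.7e-05). Tcp11 was already high early, at 12.01 and 11.56, and reached 13.26 and 13.37, a rise of 1.53 ± 0.46 (2.90-fold, limma, adjusted p = 0.019). Both groups were apart for these 3 genes on every array. The call of Tcp11 was lost without pre-mid-pachytene replicate 2 (adjusted p = 0.11 in limma), late replicate 1 (0.070) or late replicate 2 (0.087), in a range of 5.9e-04 to 0.11 over its alternatives.

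Tcp10c moved from 10.19 and 9.73 to 13.28 and 13.74. Its arrays did not overlap, yet the change of 3.55 ± 1.55 did not pass in limma (adjusted p = 0.080), where the spread is shared with the carrier groups. Fitted on the C57BL/10J arrays alone it passed (adjusted p = 3.1e-04 in limma, with a range of 3.1e-04 to 0.22 over its alternatives). Tcp1 stood at 15.25 and 15.40, then at 15.32 and 15.46, with a change of 0.07 and a 95% confidence interval from -0.67 to 0.80. Those ranges overlapped.

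Partners and relatives of the genes were read from lists chosen with earlier results of these data known. Over all genes tested, 26.2% were called higher and 30.3% lower in mid-late cells. In the nexin-dynein regulatory complex, 7 of 9 tested genes were called higher and 0 lower. Of the 7, Tcte1 and Iqca reached 4 in sorted cells on the late arrays alone and had to differ. The others included Drc1, at 5.12 ± 0.59, and Ccdc65, at 4.61 ± 0.94 (adjusted p = 1.0e-04 and 0.0028 in limma), which encode core subunits. Of the 8 measured genes related to CCT, Cct6b, a testis form of a subunit, rose by 4.01 ± 0.52, while Cct8 and the testis gene Cct8l1 had changes of -1.27 ± 0.42 and -3.20 ± 0.22 (adjusted p = 2.1e-04, 0.028 and 5.5e-06 in limma). Cct8l1 reached 4 on the pre-mid-pachytene C57BL/10J arrays alone, so it had to differ. Tcp11l2, a relative of Tcp11, had a change of -4.31 ± 0.67 (adjusted p = 6.2e-04 in limma), opposite in direction to Tcp11. Among 14 tested other genes of the t complex, 4 rose and 5 fell, with Dnah8, a sperm tail dynein heavy chain, at 2.72 ± 0.62 (adjusted p = 0.0051 in limma). For Tcte3 itself there was no value. Of its relatives, the dynein light chains, 4 of 10 rose and 4 fell, with Dnali1, an inner arm light chain gene, at 3.70 ± 0.51 (adjusted p = 3.0e-04 in limma).

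The marker lists moved with stage. The 19 measured genes of a mid-late pachytene list had a mean of 11.09 and 11.24 in the earlier cells and of 12.67 and 12.79 in the later ones. A list of 20 round and elongating spermatid genes went the other way, from 10.61 and 11.15 to 9.06 and 9.64. Spermatogonial and Sertoli lists fell to 3.52 to 3.55 and to 4.07 to 4.25, from 7.60 to 8.01 and 6.43 to 6.47. The part of cell composition in the members' rise was not tested, and in sorted populations fewer cells of a type and less RNA per cell cannot be told apart.

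**Figure D2:**
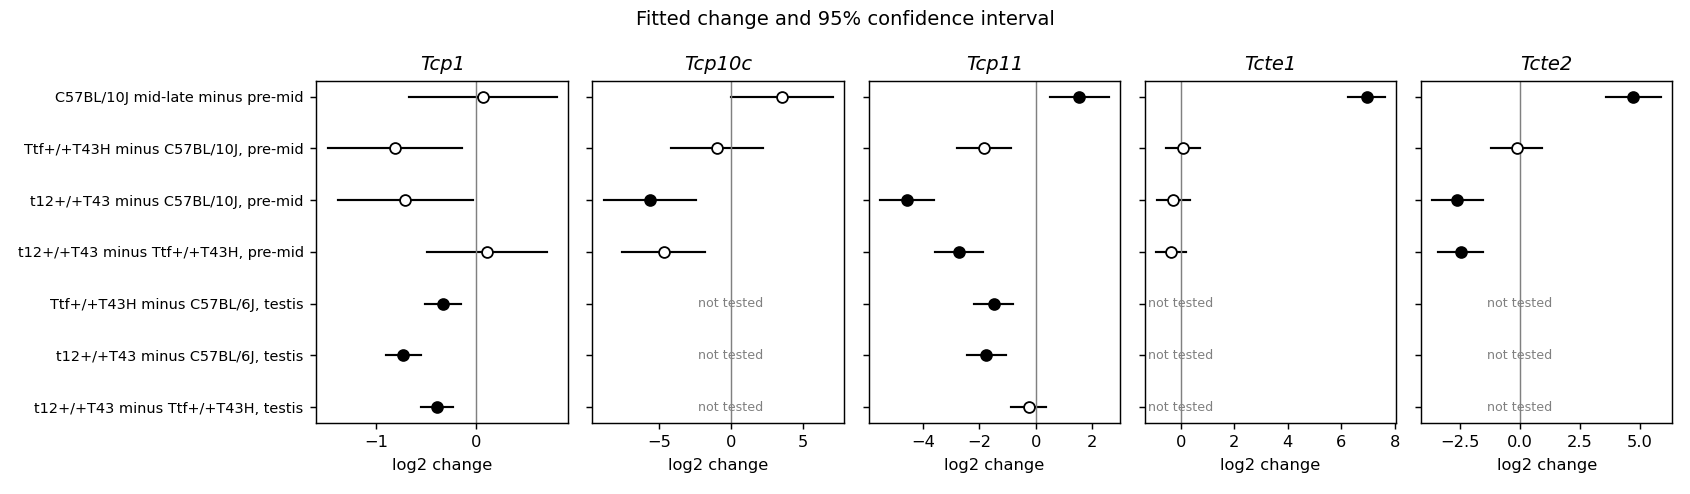
Log2 change of each gene in 7 comparisons (horizontal axis, scaled per gene), with points for limma's fitted change and lines for its 95% confidence interval; filled points have an adjusted p under 0.05. Tcp10c, Tcp11 and Tcte2 lie lowest for t12+/+T43 against C57BL/10J in sorted cells, and Tcp1 is lower in both carriers' testes.

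The sorted cells of t12+/+T43, compared with those of C57BL/10J, set the t12 chromosome and the translocation against a normal chromosome 17. Tcp11, Tcte2 and Tcp10c fell, and Tcp1 and Tcte1 did not pass. Limma thus called 3 of 5 genes, all lower, where 9.07% of all genes tested were called and 5.83% were called lower. The median change of the 5 was -2.60, against 0.06 over all genes.

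Tcp11 stood at 6.96, 8.07 and 6.63 in t12+/+T43 against 12.01 and 11.56. Every carrier array lay below both controls, and the gene fell by 4.56 ± 0.42 (23.7-fold, limma, adjusted p = 8.1e-04, n = 3 and 2). It kept its call in all 15 alternatives, with adjusted p between 2.7e-06 and 0.023. Tcte2 was low on all t12+/+T43 arrays, at 2.36, 2.98 and 2.70, and stood at 5.79 and 4.77 in controls. It fell by 2.60 ± 0.46 (adjusted p = 0.010 in limma), and lost its call without C57BL/10J replicate 1, where the change was -2.09 and the adjusted p 0.13 (range 1.6e-04 to 0.13).

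Tcp10c varied most. The t12+/+T43 arrays read 2.01, 7.89 and 3.17 and the controls 10.19 and 9.73, so replicate 2 lay nearer to the controls than to its own group. The gene fell by 5.60 ± 1.41 (adjusted p = 0.043 in limma), and 8 of 15 alternatives ended the call (range 6.6e-05 to 0.26). Without t12+/+T43 replicate 1 or 3 the change was -4.43 or -5.01 (adjusted p = 0.094 and 0.13 in limma), and without C57BL/10J replicate 1 or 2 it was -5.37 or -5.83 (0.26 and 0.20). Leaving out t12+/+T43 replicate 2 gave -7.37. Without both arrays that stood apart the adjusted p was 0.11 in limma.

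Tcp1 read 14.51, 14.61 and 14.71 in t12+/+T43 against 15.25 and 15.40. The arrays did not overlap, but the change of -0.71 ± 0.29 did not pass (adjusted p = 0.20 in limma). It passed with array weights (0.0059), with all 18 arrays in 1 fit (0.033) and without both arrays that stood apart (0.049), in a range of 0.0059 to 0.62. Tcte1 was low on all 5 arrays, at 2.32 to 2.77, with a change of -0.27 (95% confidence interval -0.90 to 0.35).

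Spermatid markers were lower in the same t12+/+T43 sorts, and replicate 2 was again the highest. The mean of the 20 spermatid genes was 5.74, 7.62 and 5.66 in t12+/+T43 and 11.15 and 10.61 in C57BL/10J, and 15 of the 20 fell, with Spata19, Tssk3 and Izumo1 low on every t12+/+T43 array. The mid-late pachytene list had means of 9.80, 10.49 and 9.62 against 11.24 and 11.09, with 3 of 19 lower. The 5 measured Leydig markers had means of 8.03 to 10.61 against 3.998 to 5.80, with 2 higher, and the 13 Sertoli markers 7.10 to 8.04 against 6.43 to 6.47, with 4 of 9 tested higher. All 5 macrophage and blood markers were low on every one of these arrays. The part of these lists in the fall of the t complex genes was not tested.

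**Figure D3:**
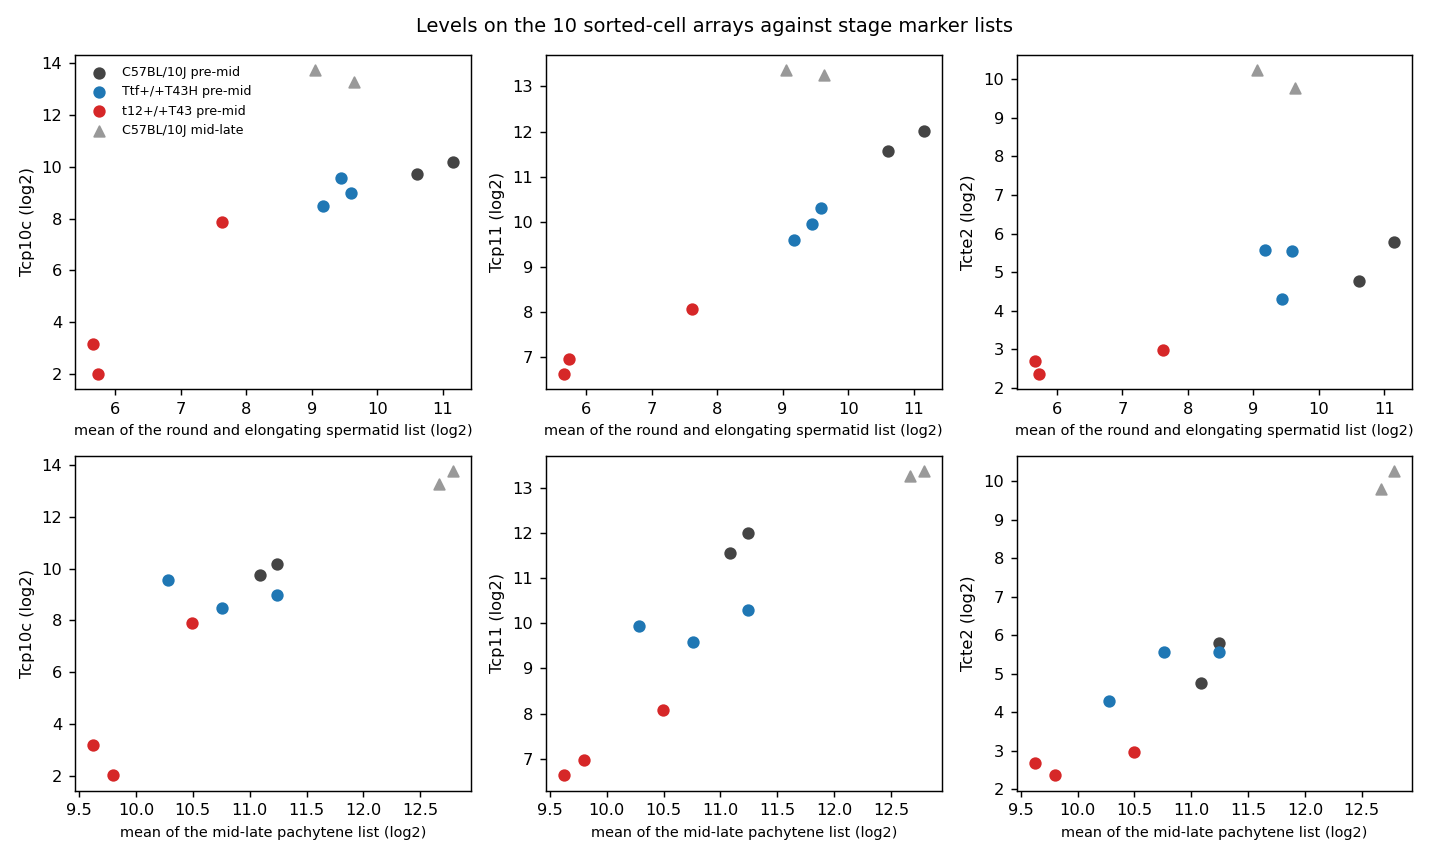
Log2 signal of Tcp10c, Tcp11 and Tcte2 (vertical axes) on the 10 sorted-cell arrays against the mean log2 signal of a spermatid list (top row) and a mid-late pachytene list (bottom row). The t12+/+T43 arrays are lowest for each gene and for the spermatid list, with replicate 2 the highest of them and above 1 Ttf+/+T43H array on the mid-late list, and the C57BL/10J mid-late arrays (triangles) are highest for the genes but not for the spermatid list.

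Other t complex genes and relatives of the members were read as well, and few of them were called. Rsph1, a radial spoke gene of the sperm tail on the same chromosome, fell by 2.53 ± 0.42 and Tbp fell by 1.204 ± 0.26 (adjusted p = 0.0083 and 0.025 in limma), the only 2 of 14 tested other t complex genes that were called. Over all genes 5.83% were called lower. Tcp11x2, a relative of Tcp11, fell by 2.62 ± 0.52, the dynein light chain gene Tctex1d1 fell by 4.09 ± 0.70 and Drc1 fell by 2.11 ± 0.54 (adjusted p = 0.017, 0.0090 and 0.045 in limma). Called lower were 1 of 2 tested relatives of Tcp11, 2 of 10 dynein light chains and 1 of 9 genes of the nexin-dynein regulatory complex. Counts this small are not read as a fall shared with the members. Cct8l1 fell by 3.46 ± 0.20 (adjusted p = 1.4e-04 in limma), from 5.53 and 5.21 to between 1.87 and 1.96, again having passed the filter through the controls alone.

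In Ttf+/+T43H pre-mid-pachytene cells none of the 5 genes passed against C57BL/10J. Limma called 0 of 5, where 199 of 9666 genes (2.06%) were called. That total moved to 36, 368 and 75 without Ttf+/+T43H replicate 1, 2 or 3, and to 18 with a term for the replicate number. At an unadjusted p under 0.05 were 2 of the 5, and 1731 of the 9666 genes tested. Their median change was -0.81 against 0.01 over all genes.

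Tcp11 stood at 9.59, 9.95 and 10.30, below both controls at 12.01 and 11.56, with a change of -1.83 ± 0.42 (3.56-fold, limma, adjusted p = 0.064). Centring arrays on their medians (adjusted p = 0.0499685), array weights (3.2e-04) or all 18 arrays in 1 fit (0.0064) moved it past the threshold in limma, within a range of 3.2e-04 to 0.45. Tcp1 stood at 14.67, 13.93 and 14.93, also below both controls, with a change of -0.81 ± 0.29 (adjusted p = 0.20 in limma) that passed with array weights (0.0060) and with all 18 arrays in 1 fit (0.024), in a range of 0.0060 to 0.67.

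The other 3 genes did not pass. Tcp10c read 8.49, 9.55 and 8.99, below 10.19 and 9.73, with a change of -0.95 and a 95% confidence interval from -4.17 to 2.27. Tcte2 read 5.57, 4.31 and 5.55, overlapping the controls (change -0.14, interval -1.19 to 0.91). Tcte1 read 2.26, 3.09 and 2.93 and was low in both groups. The spermatid list had means of 9.18 to 9.59 in Ttf+/+T43H, between those of t12+/+T43 and C57BL/10J, and 1 of its 20 genes fell. Leydig markers had means of 6.93 to 8.31 and Sertoli markers of 6.73 to 7.23, and their part in the values of the t complex genes was not tested. As in t12+/+T43, Rsph1 and Cct8l1 were called lower, with changes of -2.11 ± 0.42 and -3.42 ± 0.20 (adjusted p = 0.046 and 3.0e-04 in limma). The Rsph1 call lies near the threshold and was not followed through the other settings. Here too Cct8l1 had passed the filter through the controls alone, so it had to differ.

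The direct comparison of the carriers keeps the translocation on both sides. Tcp11 and Tcte2 were lower in t12+/+T43 than in Ttf+/+T43H pre-mid-pachytene cells. Limma called 2 of 5 genes, both lower, against 0.755% of all genes, and the median change was -2.46 against 0.05 over all genes.

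Tcp11 ranges did not overlap (6.63 to 8.07 against 9.59 to 10.30), and the gene fell by 2.73 ± 0.38 (6.64-fold, limma, adjusted p = 0.020, n = 3 and 3). Tcte2 ranges did not overlap either (2.36 to 2.98 against 4.31 to 5.57), and it fell by 2.46 ± 0.41 (adjusted p = 0.041 in limma). Both calls were lost when single arrays were left out. For Tcp11 this was so without any of Ttf+/+T43H replicates 1, 2 and 3 (adjusted p = 0.057, 0.061 and 0.086 in limma) and without t12+/+T43 replicate 1 or 3 (0.068 and 0.088), in a range of 4.9e-04 to 0.17. For Tcte2 it was so for Ttf+/+T43H replicates 1 and 3 (0.13 and 0.16) and t12+/+T43 replicates 1 and 3 (0.13 and 0.18), in a range of 5.9e-04 to 0.18. Without both arrays that stood apart the changes were -2.44 and -2.89 (0.17 and 0.096). In that fit limma called 0 of all 9524 genes tested.

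For Tcp10c the change was -4.65 ± 1.26, a drop exceeded by 7 of 9666 genes, yet it did not pass (adjusted p = 0.18 in limma). Without t12+/+T43 replicate 2, the array at 7.89, it was -6.42 (adjusted p = 3.4e-04 in limma, range 3.4e-04 to 0.59). Tcp1 ranges overlapped, with a change of 0.10 and a 95% confidence interval from -0.50 to 0.71. In this comparison 8 of 20 spermatid genes and 1 of 19 mid-late pachytene genes fell.

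In testes at 15 days few of the genes had a level to compare. Tcp1 was high on all 8 arrays, Tcp11 reached 4 on both C57BL/6J arrays alone, and Tcp10c, Tcte1 and Tcte2 were low on every array, so the first 2 were tested and the other 3 were not. For Tcp10c one C57BL/6J array read 3.07 and the other 1.90, beside 1.86 to 1.92 in carriers. Tcte1 read 2.22 to 2.27 on all 8 arrays, and Tcte2 2.13 to 2.17 in carriers and 2.53 and 2.28 in C57BL/6J. The round and elongating spermatid list was equally low, with 16 of its 20 genes under 4 on every testis array.

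Tcp1 formed a graded series in which the groups did not overlap. It read 13.93 and 13.87 in C57BL/6J, 13.60, 13.61 and 13.50 in Ttf+/+T43H, and 13.27, 13.04 and 13.21 in t12+/+T43. Against C57BL/6J it fell by 0.33 ± 0.08 in Ttf+/+T43H (1.26-fold, limma, adjusted p = 0.040) and by 0.73 ± 0.08 in t12+/+T43 (1.66-fold, limma, adjusted p = 0.0013). Between the carriers it fell by 0.40 ± 0.07 (1.32-fold, limma, adjusted p = 0.037). The t12+/+T43 call against C57BL/6J held without any 1 array but was lost with all 18 arrays in 1 fit (adjusted p = 0.16 in limma, range 6.8e-04 to 0.16). The Ttf+/+T43H call did not hold without any of Ttf+/+T43H replicates 1, 2 and 3 (adjusted p = 0.083, 0.092 and 0.074 in limma) and without C57BL/6J replicate 1 or 2 (0.21 and 0.15), in a range of 0.024 to 0.999993. Between the carriers it was lost without Ttf+/+T43H replicate 1 or 2 (0.11 and 0.14) and t12+/+T43 replicate 2 or 3 (0.11 and 0.089), in a range of 0.013 to 0.999959.

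Tcp11 read 4.75 and 4.87 in C57BL/6J, 3.96, 3.21 and 2.78 in Ttf+/+T43H, and 3.05, 3.07 and 3.06 in t12+/+T43. Having passed the filter through the C57BL/6J arrays alone, it had to differ, and its calls are no support for a fall. The changes against C57BL/6J were -1.50 ± 0.29 and -1.75 ± 0.29 (adjusted p = 0.024 and 0.0076 in limma), and the first was lost without Ttf+/+T43H replicate 2 (0.083, range 0.0017 to 0.15). Without either C57BL/6J array the gene no longer passed the filter. The carriers overlapped, with a change of -0.25 between them (95% confidence interval -0.87 to 0.36).

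Over all genes tested in testes, 8.56% were called in Ttf+/+T43H against C57BL/6J, 21.8% in t12+/+T43 against C57BL/6J and 4.99% between the carriers. Tcp1 was called in each of these comparisons, and the calls of Tcp11 are not counted, for the reason given. Mid-late pachytene markers had list means of 8.33 to 8.60 in C57BL/6J, 7.93 to 8.38 in Ttf+/+T43H and 7.31 to 7.71 in t12+/+T43. Ttf+/+T43H thus overlapped C57BL/6J, and t12+/+T43 lay below both. The median change of the tested list genes was -0.09 in Ttf+/+T43H and -0.66 in t12+/+T43, against 0.0035 and 0.016 over all genes. Called lower were 3 and 11 of 15 tested genes in Ttf+/+T43H and t12+/+T43, beside 4.70% and 11.3% of all genes. Pgk2, Adam3 and Acr were under 4 on every carrier testis array but not on every C57BL/6J array. Those of them that were tested had to differ, and the counts of 3 and 11 include any of them that were called. The count of 3 in Ttf+/+T43H is thus not read as a fall of the list. The part of this list in the values of the t complex genes was not tested. Leydig markers had means of 7.43 to 8.21, 4.41 to 7.56 and 4.99 to 7.60 in C57BL/6J, Ttf+/+T43H and t12+/+T43, with 1 of 4 tested genes lower in each carrier. Sertoli markers had means of 9.48 to 9.49, 9.33 to 9.50 and 9.42 to 9.62 in the same order of groups.

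Tcp1 fell in testes while none of the other measured genes of the general CCT subunits was called. These 6, Cct2, Cct3, Cct4, Cct5, Cct7 and Cct8, had changes of -0.06 to 0.10 in Ttf+/+T43H and of -0.12 to -0.01 in t12+/+T43 against C57BL/6J, and limma called 0 of 6 (smallest adjusted p = 0.31 and 0.13). The testis form Cct6b fell by 1.75 ± 0.33 in t12+/+T43 (adjusted p = 0.011 in limma). Relative to the mean of the 6 genes on the same array, Tcp1 stood at 0.55 and 0.50 in C57BL/6J, 0.15, 0.22 and 0.13 in Ttf+/+T43H, and -0.06, -0.28 and -0.06 in t12+/+T43. The same within-array measure in sorted cells was 0.87 and 0.83 in C57BL/10J, 0.24, -0.12 and 0.34 in Ttf+/+T43H and -0.06, 0.33 and -0.08 in t12+/+T43. Carriers lay below the controls on every array in both tissues, and no test was run on this measure. None of the 6 was called in either carrier's sorted cells against C57BL/10J (smallest adjusted p = 0.39 and 0.47 in limma). In C57BL/10J mid-late cells it was 1.34 and 1.18, where Cct8 was lower.

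**Figure D4:**
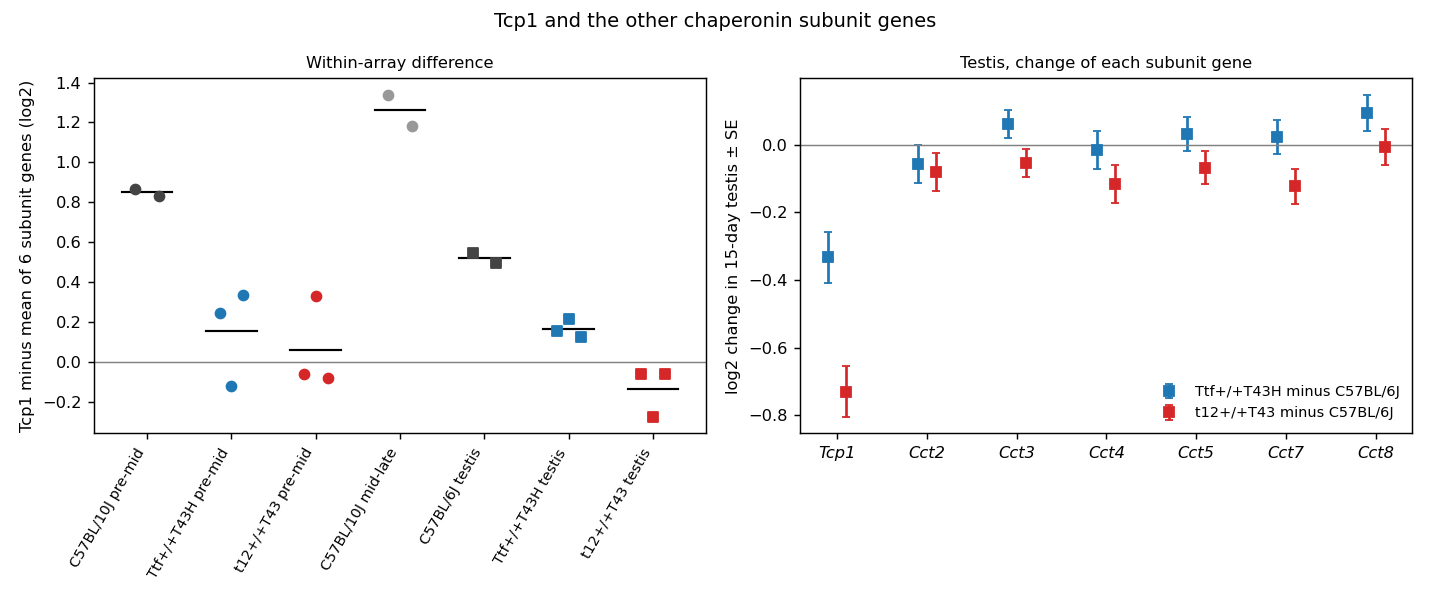
Left, log2 signal of Tcp1 minus the mean of Cct2, Cct3, Cct4, Cct5, Cct7 and Cct8 on the same array (points) with group means (bars); right, limma's log2 change ± SE of each gene in 15-day testes of both carriers against C57BL/6J. Tcp1 is lower by 0.33 and 0.73 while the 6 other genes lie between -0.12 and 0.10.

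The genes nearest to each member on the chromosome were read in testes first. Near Tcp1, Pnldc1, a nuclease gene that trims piRNAs, read lower in the same graded way, with falls of 0.33 ± 0.06 and 0.67 ± 0.06 (adjusted p = 0.020 and 8.9e-04 in limma). Mrpl18, a mitochondrial ribosome gene that overlaps Tcp1, had a change of -0.26 in Ttf+/+T43H (adjusted p = 0.11 in limma) and fell by 0.56 ± 0.08 in t12+/+T43 (0.0054). Sod2, the mitochondrial superoxide dismutase gene on the other side, had changes of -0.02 and -0.02. Around Tcp11 the nearest measured genes were Anks1, which was not called (-0.13 and 0.13), and Zfp523, which fell in Ttf+/+T43H and in t12+/+T43, with changes of -0.48 and -0.35 (adjusted p = 0.0043 and 0.0067 in limma). Near Tcte1, Spats1 fell by 0.96 and 1.39 in the 2 carriers (adjusted p = 0.0073 and 9.7e-04 in limma), while Cdc5l and Slc35b2 did not pass, with values between -0.12 and 0.03. Among the 3 nearest array genes on each side, those called lower in t12+/+T43 testes were 2 of 3 tested for Tcp1, 3 of 4 for Tcp10c, 2 of 4 for Tcte2, 2 of 4 for Tcp11 and 1 of 3 for Tcte1, beside 11.3% of all genes. The sets of Tcp1, Tcp10c and Tcte2 share genes, and those of Tcp10c and Tcte2 include Tcp1. In sorted t12+/+T43 cells against C57BL/10J, called lower were 2 of 5 tested for Tcp1 and 1 of 5 each for Tcp10c and Tcte2. These were Tcp10c and Tcte2 themselves. For Tcp11 it was 1 of 4, Zfp523, and for Tcte1 0 of 5, beside 5.83% of all genes.

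**Figure D5:**
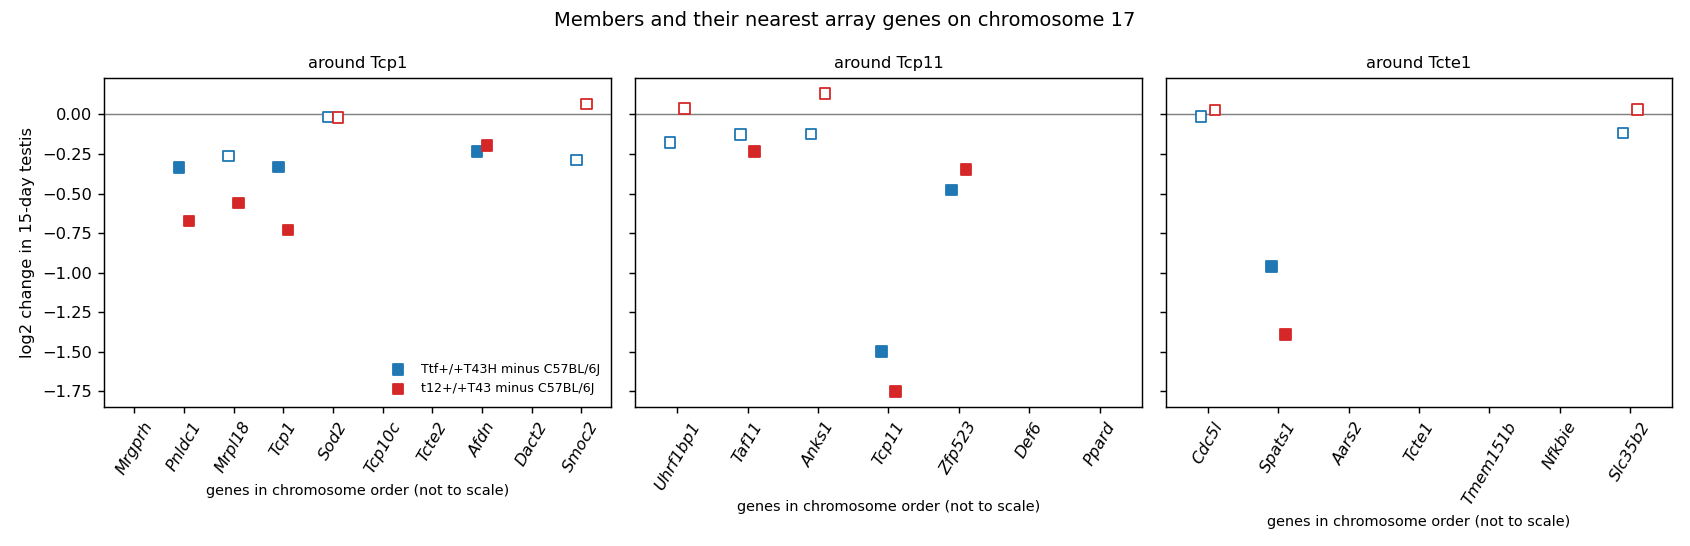
Log2 change in 15-day testes of the t complex genes and the array genes nearest to them, in chromosome order, for both carriers against C57BL/6J; filled squares have an adjusted p under 0.05 in limma, and genes without a square were not tested. Pnldc1, Mrpl18 and Tcp1 are lower in t12+/+T43 by 0.67, 0.56 and 0.73, and Sod2 lies at -0.02.

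Other t complex genes also fell in testes. Of 13 tested, 4 fell in Ttf+/+T43H, and 7 fell and 1 rose in t12+/+T43. Over all genes tested, 4.70% were lower in Ttf+/+T43H, and 11.3% lower and 10.5% higher in t12+/+T43. Rsph1 fell in both, with changes of -1.71 ± 0.09 and -2.88 ± 0.09, Tbp likewise with -0.70 ± 0.07 and -1.28 ± 0.07, and Dnah8 had a change of -0.50 in Ttf+/+T43H and fell by 3.14 ± 0.34 in t12+/+T43 (adjusted p = 8.0e-05, 6.0e-06, 0.0026, 1.1e-04, 0.40 and 0.0015 in limma). Genes of the nexin-dynein regulatory complex, in which Tcte1 itself was low, fell in 4 of 4 tested in t12+/+T43 and in 0 of 4 in Ttf+/+T43H. These were Gas8, Ccdc65, Iqcg and Drc3, with changes from -1.204 to -0.53. Among the dynein light chains, 4 of 9 tested were called lower in t12+/+T43 and 2 of 9 in Ttf+/+T43H. Both counts include Dnali1, which reached 4 in testes on the C57BL/6J arrays alone, at 5.05 and 4.44, and so had to differ. The CCT cofactors, prefoldin and phosducin-like genes, had 3 of 9 lower and 1 higher in t12+/+T43 and 1 of 9 lower in Ttf+/+T43H.

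A single fit of all arrays set the contrast of t12+/+T43 with Ttf+/+T43H in sorted cells against that in testes, and how the arrays of both tissues were normalized together is not given in the sources used here. Limma called 2 of the 5 genes, against 0.734% of 10623. Tcp11 had a difference of -2.48 ± 0.49 and Tcte2 of -2.45 ± 0.45 (adjusted p = 0.033 and 0.022 in limma). Both were low on all testis arrays of both carriers, so these values repeat the contrast in sorted cells. Tcp11 lost its call in 9 and Tcte2 in 8 of the 12 fits that left out 1 array of the carriers. Tcp11 kept it without sorted Ttf+/+T43H replicate 1, sorted t12+/+T43 replicate 2 or testis Ttf+/+T43H replicate 1, and Tcte2 without replicate 1 or 2 of either sorted carrier. The adjusted p ranges over the alternatives were 3.8e-04 to 0.14 and 9.7e-06 to 0.13 in limma. Tcp10c had -4.64 ± 1.45 (adjusted p = 0.25 in limma) and Tcp1 0.50 ± 0.27 (0.75), the opposite sign.

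Levels across sorted cells and testes are set side by side here although it is not stated whether both tissues were normalized in 1 run, and centring the arrays moved 23 of the 35 group levels, by up to 0.73. Tcp1 covered a range of 13.04 to 15.46, in the order mid-late C57BL/10J, pre-mid C57BL/10J, t12+/+T43, Ttf+/+T43H, then testes of C57BL/6J, Ttf+/+T43H and t12+/+T43. In it the first 2 groups overlapped, as did the sorted t12+/+T43 and Ttf+/+T43H cells, and the latter with C57BL/6J testes. Tcp11 and Tcp10c went from means of 13.32 and 13.51 in mid-late cells, through 11.78 and 9.96, 9.95 and 9.01, and 7.22 and 4.36, to testis means of 3.06 to 4.81 and 1.87 to 2.49. For Tcp11 only the carrier testes overlapped. For Tcp10c there was overlap between t12+/+T43 sorts and C57BL/6J testes, between C57BL/6J and Ttf+/+T43H testes, and between the carrier testes. Tcte2 had the same order, with overlap between pre-mid C57BL/10J and Ttf+/+T43H, between t12+/+T43 sorts and C57BL/6J testes, and between the carrier testes. Tcte1 was high in mid-late cells alone, with a mean of 9.62 there and of 2.24 to 2.76 in the other groups. It reached 4 on 2 of 18 arrays, Tcte2 on 7, Tcp10c on 8, Tcp11 on 12 and Tcp1 on 18.

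The named genes most like each member over the 18 arrays, by Pearson correlation among 10236 candidates, are given as a description, since arrays of a group share their cells. For Tcp1 they were Pkmyt1 (0.976), Dlat (0.970) and Polr1c (0.970), of which Pkmyt1 and Polr1c also lie on chromosome 17. For Tcp10c they were Prss39 (0.998), Tmem225 (0.995) and Erich6 (0.993). Actl7b (0.991), Pgk2 (0.990) and Fhad1 (0.990) were most like Tcp11, and Herc6, Hjv and Anks4b (0.997 each) most like Tcte1, whose correlation rests on the 2 late arrays. Tex47 (0.989), Wdr66 (0.987) and Trim69 (0.982) were most like Tcte2. Prss39 had group means of 4.08 in sorted t12+/+T43 cells, 8.32 in sorted Ttf+/+T43H cells and 12.15 in mid-late cells.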

How the data were processed

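RNA from 18 mouse samples was measured on Affymetrix arrays with 1 probe set per Entrez gene. The authors deposited log2 values normalized by GCRMA, per the submitters' processing notes; which arrays were normalized together, the version and the genome build are not given in the sources used here. Of 16539 probe sets, 15780 had 1 gene symbol, 759 none and 0 several. Groups were taken from the sample labels.

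Genes with a log2 value of at least 4 on at least 2 arrays were tested with limma 3.58.1 in R 4.3.3. One linear model covered the 10 sorted-cell arrays (9666 genes), another the 8 testis arrays (9134), and 1 more all 18 for the difference between tissues (10623). Tests were two-sided, p-values were moderated and Benjamini-Hochberg adjusted over all genes tested, and an adjusted p under 0.05 was called. The small number of arrays limits the precision. The script was tested on simulated data.

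Other settings tried were omitting the filter or raising it to 6, quantile normalization, median centring, array weights, other sets of arrays, the replicate number as a block, and leaving out arrays. Named were all members, up to 6 genes of each listed family, from those called or nearest in function, the 3 nearest array genes on each side, and the 3 most correlated genes. The members and lists were chosen with earlier results of these data known. Same-numbered carrier samples did not deviate together throughout (correlations 0.25, 0.02 and -0.36 in sorted cells, and 0.50, 0.05 and 0.68 in testes). Promoters came from RefSeq, with entries for 5 of the 6 genes. Tcte3 values and a Tcte1 promoter were not analysed here.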

Additional observations from a re-analysis of the deposited data

Results flagged for a closer look

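For 2 of the genes the fitted contrast between the carriers in sorted cells differed from that in testes. The t12+/+T43 minus Ttf+/+T43H change of Tcp11 was lower in sorted cells by a fitted difference of -2.48 (adjusted p = 0.033 in limma). For Tcte2 the same difference was -2.45 (adjusted p = 0.022 in limma). Tcte2 was under a log2 value of 4 on every testis array, and Tcp11 on every testis array of the carriers, so the difference repeats the contrast in sorted cells and says nothing of a tissue effect. Of 20 alternatives, 13 ended the call of Tcp11 and 11 that of Tcte2, with adjusted p in limma from 3.8e-04 to 0.14 and from 9.7e-06 to 0.13.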

How the results depend on the processing

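The counts of t complex genes called moved under these settings, and the cause was not tested. In Ttf+/+T43H against C57BL/10J sorted cells, 0 became 1 with median centring and 2 with array weights or all 18 arrays in 1 fit. For t12+/+T43 and the same controls, 3 became 2 with no filter, the replicate number as a block or only the 2 groups. It became 4 with array weights or all 18 arrays. In t12+/+T43 against C57BL/10J, leaving out 1 array gave 1 to 3. Between the carriers' sorted cells, 2 became 0 with no filter, the block or only the 2 groups, and without the 2 arrays that stood apart. It became 1 with quantile normalization or centring, 3 with array weights or all 18 arrays, and 0 to 3 without 1 array. Over all genes, the 73 calls there became 0 without the 2 arrays that stood apart and 13 to 411 without 1 array. In mid-late against pre-mid cells, 3 became 4 with centring, array weights, only the 2 groups or all 18 arrays. Mid-late against pre-mid cells gave 1 to 3 when 1 array was left out. Tcte1, which had to differ there, was among them unless a late array was left out. In Ttf+/+T43H testes, 2 became 0 with no filter or all 18 arrays, 1 with a filter at 6, quantile normalization or only the 2 groups, and 0 to 1 without 1 array. In t12+/+T43 testes it became 1 with a filter at 6 or all 18 arrays, and 1 to 2 without 1 array. Both of these testis counts include Tcp11 in the main fit, where it had to differ. With a filter at 6 or without either C57BL/6J array Tcp11 could not be tested. Between carrier testes, 1 became 0 with no filter, only the 2 groups or all 18 arrays, and 0 to 1 without 1 array. For the difference between tissues, 2 became 0 with no filter, centring or the block and 1 without the 2 arrays that stood apart. It became 3 with array weights, and 0 to 3 without 1 array.

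Changes that passed no test reversed sign in places. In Ttf+/+T43H sorted cells Tcte1 was -0.034 with centring, -0.28 with array weights, -0.0745 without the 2 arrays that stood apart and -0.0745 to 0.34 without 1 array, and Tcte2 was 0.25 with weights, 0.28 without the 2 arrays and -0.65 to 0.37 without 1 array. Between the carriers' sorted cells Tcp1 was -0.13 with weights, -0.24 without the 2 arrays and -0.19 to 0.31 without 1 array, and Tcte1 was 0.019 with weights. Tcp1 in mid-late cells was -0.0086 to 0.14 and Tcp11 between carrier testes -0.52 to 0.069 without 1 array, and Tcte1 in the difference between tissues was 0.039 with weights. What same-numbered samples of the carriers share is not given in the sources used here. In testes, numbers 1 and 3 deviated together (correlations 0.50 and 0.68) and number 2 did not (0.05). The main fits hold no term for the replicate number. With it as a block, limma's calls over all genes went from 456 to 1703 between carrier testes and from 73 to 0 between the carriers' sorted cells. The cause was not tested. Values near the array's floor limit what can be read from Tcte1, Tcte2 and Tcp10c in testes.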
